A study of Mus musculus with 34 samples.

Results

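Ribosomal protein (RP) gene sites were examined as places where the transcription factors BATF, IRF4 and Foxp3 were recovered by chromatin immunoprecipitation and sequencing (ChIP-seq) from mouse CD4 T cells. A site was counted when the nearest mm10 protein-coding gene body within 100 kb was a cytosolic RP gene by its symbol (Rpl, Rplp or Rps with a number, or Rpsa, leaving out the Rps6k kinases and pseudogenes). This rule used gene symbols and positions and no measured value. It took 175 of the 41612 peaks in 4 deposited tables. By their symbols there are 85 RP genes, of which 53 encode proteins of the large ribosomal subunit and 32 of the small one. The 175 peaks belong to 75 of these 85 genes. All 175 peaks are 400 bp long, and positions are given on mm10 as deposited. The farthest was an Rpl34 peak 88333 bp from the gene, with a mean value of 28.9 in its table. Just outside the limit lay BATF and IRF4 peaks 117201 to 117265 bp from Rpl14, with means from 18.5 to 60.9.

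Cells came from C57BL6/J mice, from spleen and lymph nodes, and were used straight after sorting. Every strain carries a human CD2 (hCD2) reporter in the Foxp3 gene, and the labels used here give no ages. Regulatory T (Treg) cells were CD4+hCD2+ and conventional T (Tconv) cells CD4+hCD2-, both from Foxp3-IRES-hCD2 mice. BATF was profiled in 2 Treg and 2 Tconv libraries, and IRF4 in 4 and 4. Foxp3 was profiled in 2 libraries each of Treg cells, Treg cells of Foxp3-IRES-hCD2.Batf-/- mice (Batf KO), central Treg (cTreg) cells sorted as CCR7hiCD62LhiCD44lo, and effector Treg (eTreg) cells sorted as CCR7loCD62Llo. A second BATF table compares 2 libraries of Treg cells that express Foxp3 with the R397W substitution, sorted as CD4+hCD2+GFP- from Foxp3R397W-IRES-hCD2/Foxp3-IRES-GFP mice, with 2 of Foxp3WT-IRES-hCD2/Foxp3-IRES-GFP control mice. It also holds the 4 Treg and Tconv libraries again. The GFP- sort takes cells that use the hCD2 allele in animals whose other Treg cells use the GFP allele. The labels name antibodies to BATF (clone D7C5) and Foxp3, and none for IRF4. They do not say that libraries came from separate animals, so each p-value sets a difference against the spread between libraries. That spread is estimated in part from the other peaks of the table. No value in these tables checks the loss of Batf. The 10 input libraries were not analysed here. The samples include no BATF ChIP from Batf-deficient cells.

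BATF is a basic leucine zipper factor of the AP-1 family that binds DNA with JUN partners, often beside IRF4, and it is known for its part in the differentiation of effector T cells and effector Treg cells. Foxp3 is the forkhead factor that defines Treg cells. RP genes encode the structural proteins of the cytosolic ribosome. They are short and active in nearly all cells, and their products are made in matched amounts and rise in demand when T cells grow.

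Of the BATF peaks at RP genes with a listed gene start, 43 of 54 were centred within 100 bp of it, so the promoters that carry the results below are shown first. They come from RefSeq (GRCm38.p6, the assembly of mm10) and run from 250 bases before to 20 bases after the gene start, read 5′ to 3′ along the gene. RefSeq promoters were matched by symbol for 65 of the 85 genes. Where a gene has more than 1 listed start, the one nearest to the BATF peak centre is shown. Of the promoters shown, this applies to Rpl22 and Rps27l, with 2 listed starts each. Their gene bodies begin farther upstream, at 152324436 and 66944624. Rpl27 (chr11:101441995-101442264, + strand) had the highest BATF value of all RP genes, and Rpl22 (chr4:152325476-152325745, + strand) the next. Rps3 (chr7:99483690-99483959, - strand) and Rps27l (chr9:66945836-66946105, + strand) had peaks of all 3 factors at the gene. Rps7 (chr12:28635934-28636203, - strand) and Rpl13a (chr7:45128726-45128995, - strand) had lower IRF4 values in Treg cells. Capitals mark letters that match TGANTCA (the AP-1 core), GAAA then any 2 bases then GAAA (an IRF repeat), CCGGAAG (an ETS core) or TCTCGCGA on either strand, with N for any base.
Rpl27: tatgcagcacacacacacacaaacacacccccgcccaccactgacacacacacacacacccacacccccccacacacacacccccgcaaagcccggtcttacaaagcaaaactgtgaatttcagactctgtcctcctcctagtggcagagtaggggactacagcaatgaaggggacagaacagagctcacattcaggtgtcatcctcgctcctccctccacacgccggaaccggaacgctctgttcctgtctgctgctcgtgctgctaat
Rpl22: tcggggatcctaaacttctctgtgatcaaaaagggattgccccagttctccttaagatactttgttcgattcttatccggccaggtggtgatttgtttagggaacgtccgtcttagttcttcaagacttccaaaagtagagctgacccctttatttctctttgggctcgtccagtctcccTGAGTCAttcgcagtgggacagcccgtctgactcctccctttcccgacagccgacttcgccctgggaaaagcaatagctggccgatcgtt
Rps3: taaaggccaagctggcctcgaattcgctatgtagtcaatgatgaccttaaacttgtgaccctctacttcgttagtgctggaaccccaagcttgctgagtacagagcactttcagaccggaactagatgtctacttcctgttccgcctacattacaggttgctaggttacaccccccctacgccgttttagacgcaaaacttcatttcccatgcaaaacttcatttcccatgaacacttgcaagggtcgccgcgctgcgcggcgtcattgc
Rps27l: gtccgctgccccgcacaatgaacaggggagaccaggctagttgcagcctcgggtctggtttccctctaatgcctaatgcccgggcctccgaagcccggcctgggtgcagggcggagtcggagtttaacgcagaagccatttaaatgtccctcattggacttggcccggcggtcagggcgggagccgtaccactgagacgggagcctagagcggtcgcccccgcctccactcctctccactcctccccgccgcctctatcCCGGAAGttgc
Rps7: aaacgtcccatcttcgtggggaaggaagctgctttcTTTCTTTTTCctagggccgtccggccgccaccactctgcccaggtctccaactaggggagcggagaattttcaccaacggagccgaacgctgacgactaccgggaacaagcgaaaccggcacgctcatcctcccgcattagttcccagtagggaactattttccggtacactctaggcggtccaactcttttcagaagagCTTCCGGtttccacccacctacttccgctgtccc
Rpl13a: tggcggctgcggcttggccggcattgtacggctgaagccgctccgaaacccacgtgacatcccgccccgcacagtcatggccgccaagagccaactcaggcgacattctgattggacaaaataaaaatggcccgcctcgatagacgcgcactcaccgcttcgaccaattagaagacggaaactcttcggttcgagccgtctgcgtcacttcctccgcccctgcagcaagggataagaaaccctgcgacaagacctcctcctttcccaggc
In these windows the AP-1 letters occur in Rpl22 alone, with their first base at -70 from the gene start. Rps7 holds the IRF letters at -214 and the ETS letters at -14, and Rps27l the ETS letters at 10. Rpl27, Rps3 and Rpl13a hold none of these letters in this window.

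For each gene, the first listed promoter was searched from 250 bases before to 50 after the start. Over all 65 RP promoters, the AP-1 letters were in 2 (3.1%, Rpl22 and Rpl9), against 7.08% of 17492 coding promoters. The ETS letters were in 25 (38.5%), against 11.9%, and TCTCGCGA in 10 (15.4%), against 1.51%. Among promoters under a BATF peak the ETS and TCTCGCGA contrasts were smaller. The ETS letters were in 22 of 58 RP promoters, against 25.4% of 6155, and TCTCGCGA in 9, against 208 of 6155. The AP-1 letters were in 2 of these 58, against 3.98% of the 6155, which is below the 7.08% of all coding promoters. The IRF letters were in 7 of these 58, against 2.92% of the 6155. Over all 65, the IRF letters were in 7 (10.8%; Rpl27a, Rpl38, Rpl4, Rpl5, Rps19, Rps23 and Rps7), against 3.4%. TGACGTCA, the cyclic AMP response element, was in 5 (7.7%), against 2.34%. The forkhead letters TGTTTNC were in 6 (9.2%), against 18.4%, and CCAAT in 20 (30.8%), against 39.0%. The joined AP-1 and IRF forms searched here contain the AP-1 letters, and other spacings or variants of the AP-1 letters were not searched. GAAAN directly before TGANTCA was in 0 of the 65 and in 0.137% of all promoters, and TTTC, any 4 bases and TGANTCA in 0 and in 0.0858%. A match is a description of letters, not of a bound site.

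BATF peaks were found at most RP genes, and their values stood above those of most peaks. In the table of Treg and Tconv cells, 85 of 16109 peaks belonged to 69 RP genes. Of these, 71 lay inside or within 1000 bp of the gene ("at the gene") and 14 farther away. They covered 68 of 85 RP genes (80.0%), 42 of the large and 26 of the small subunit, while 39.9% of 21900 protein-coding genes had a BATF peak at the gene. IRF4 peaks were at 43 RP genes (50.6%), against 21.7% of coding genes. Foxp3 peaks were at 3 (3.53%: Rpl32, Rps3 and Rps27l), against 10.2%. All 3 Foxp3 sites also had BATF and IRF4 peaks at the gene. Genes given both BATF and IRF4 peaks numbered 37. IRF4 without a BATF peak given to the same gene was found at 6, among them Rpl35a, Rpl4, Rplp2, Rps15a and Rps27a. These 6 are not all sites free of BATF. Of the 45 IRF4 peaks at RP genes, 42 (93.3%) overlapped a BATF peak, whichever gene that peak was given to. At Rplp2 and Rps27a a BATF peak that reaches the gene was given to a neighbour.

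RP genes without a peak at the gene in any table numbered 10. They include the tissue-restricted paralogs Rpl10l and Rpl39l, known from testis, and Rpl3l, known from muscle. The others were Rpl32l, Rpl37, Rpl7, Rpl9, Rps18, Rps25 and Rps27. For 6 genes without a BATF peak of their own, a peak that reaches the gene was given to a neighbour: Rpl37 to Card6, Rpl9 to Lias, Rplp2 to Pidd1, Rps18 to Vps52, Rps27 to Rab13 and Rps27a to Clhc1. Conversely, 5 of the RP peaks also touch another gene: Nkiras1 at Rpl15, Med22 at Rpl7a, Sphk2 at Rpl18, Lrsam1 at Rpl12 and Ndufa7 at Rps28.

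Other genes of protein synthesis had like shares of BATF peaks at the gene. They were at 56 of 78 mitochondrial RP genes (71.8%), 38 of 47 translation factor genes (80.9%) and 40 of 47 ribosome biogenesis genes (85.1%). IRF4 peaks were at 47.4%, 53.2% and 42.6% of the same 3 lists, and Foxp3 peaks at 12.8%, 12.8% and 17.0%. These lists describe the data, and no test was made between them.

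**Figure D1:**
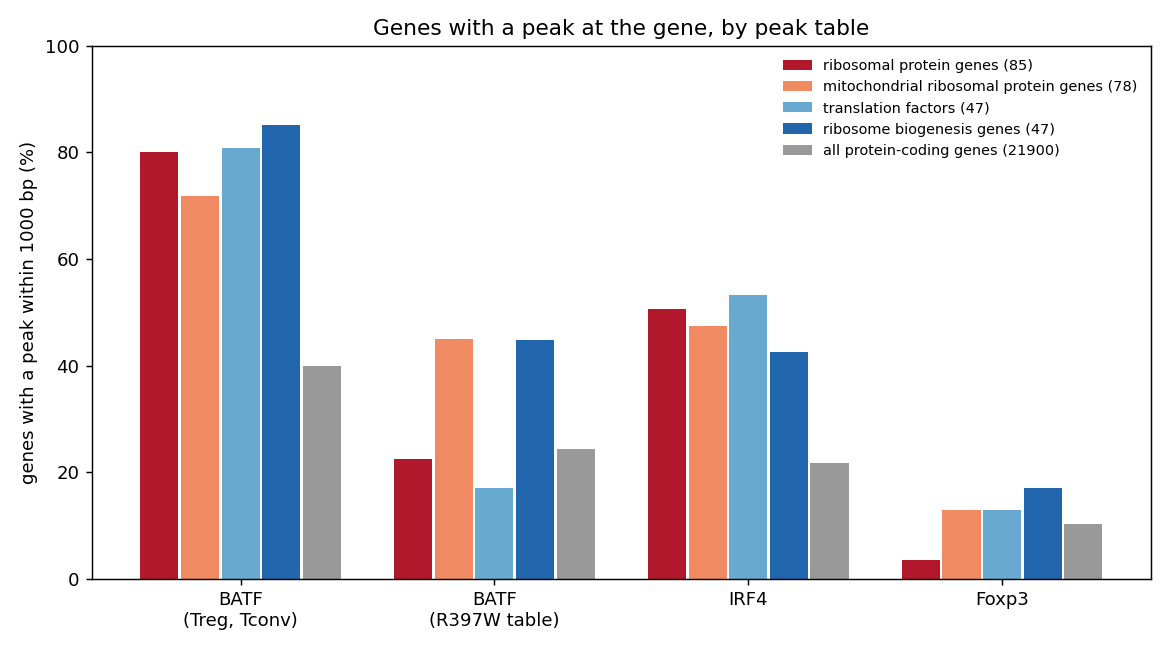
Bars give the share of genes (%) with a peak inside or within 1000 bp of the gene in each of the 4 tables, for RP genes, 3 other gene lists and all protein-coding genes, with the number of genes in brackets. RP genes stand at 80.0% for BATF and 50.6% for IRF4, against 39.9% and 21.7% of all coding genes, but at 3.53% for Foxp3, against 10.2%.

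Values are the deposited normalised peak scores, which are read counts multiplied by a factor for each library. At the 71 BATF peaks at RP genes, the mean over the 4 libraries had a median of 143.5 (range 39.1 to 369), against 111.5 at the 6369 peaks within 500 bp of any coding gene start and 82.4 over all peaks. Of the 71, 63 were above the table's median, 43 in its top 25% and 20 in its top 10%. The median of the 45 IRF4 peaks at RP genes was 19.3, against 19.3 at gene starts and 20.8 over all peaks, with 1 in the top 10% (Rps7). The 3 Foxp3 peaks had means of 32.0 to 35.4, against a table median of 30.6. By this description most RP genes stood above the table's median in BATF, and 21 of 45 peaks did in IRF4.

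Rpl27, of the large subunit, had the strongest BATF peak (chr11:101442079-101442479, percentile 98.9 of the table), with values of 427 and 334 in Treg cells and 364 and 349.9 in Tconv cells. Rpl22, also of the large subunit, had 319 and 411 in Treg cells and 329 and 409 in Tconv cells (chr4:152325486-152325886). Rpl30 had 279.9 and 318 against 365 and 358 (chr15:34443099-34443499). For Rpl27 and Rpl22 the libraries of the 2 cell types overlap, and for Rpl30 both Tconv libraries are higher.

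Among small-subunit genes, Rps20 had values of 256 and 245 in Treg cells and 286 and 295 in Tconv cells (chr4:3835493-3835893). Rps19, the gene first tied to Diamond-Blackfan anaemia, had 207 and 199 against 273 and 291 (chr7:24884276-24884676). Rps3, whose product lines the messenger RNA entry channel, had 238 and 230.4 against 243 and 258 (chr7:99483519-99483919). In all 3, both Tconv libraries are above both Treg libraries, by less than 1.5-fold. None of these 6 peaks passed the test described below.

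Most peak centres sat close to a listed gene start. Where a gene has more than 1 listed start, the one nearest to the peak centre was taken, which favours small distances. Of the 54 BATF peaks at RP genes with a listed start, 32 were centred within 50 bp of it and 43 within 100 bp, with a median of -26.5 bp, just before the start. They ranged from -2766 bp (Rpl18) to 5729 bp (a second peak at Rps19), and the other 17 of the 71 peaks have no listed start. Of the 31 such IRF4 peaks, 14 were within 50 bp and 26 within 100 bp, with a median of -17.0 bp. In 38 pairs of overlapping BATF and IRF4 peaks at RP genes, the centres lay a median of 55 bp apart. The Rps29 BATF peak (mean 81.1) is in 2 of the pairs, with IRF4 means of 11.4 and 8.85, the lowest among them. Across these 38 pairs the mean values had a Spearman correlation of 0.645 and a Pearson correlation of 0.605 on the log2 scale. The pairs share the gene and its base composition, and the correlation is given as a description.

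**Figure D2:**
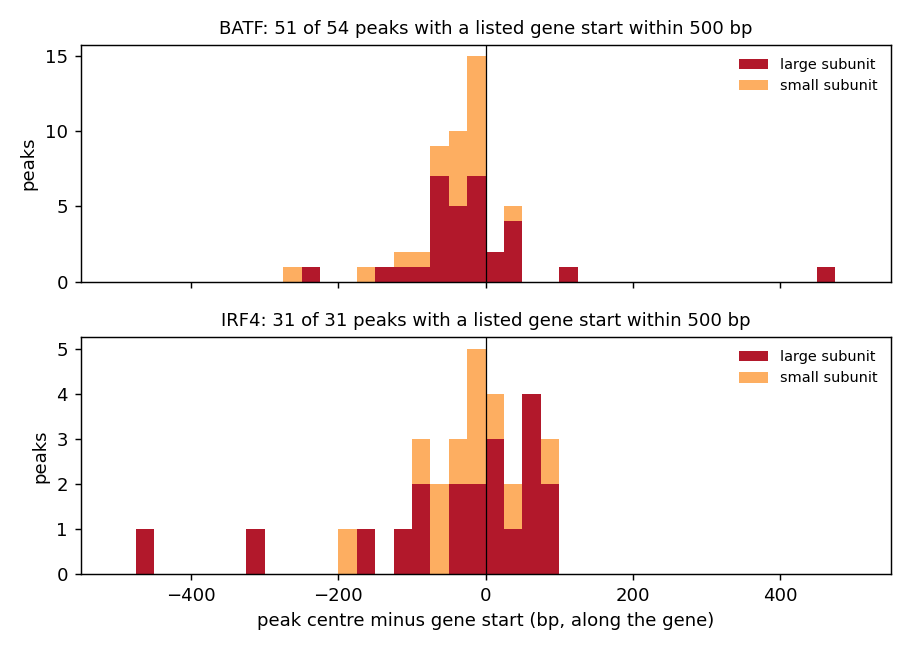
Counts of BATF (top) and IRF4 (bottom) peaks at RP genes by distance of the peak centre from the nearest listed gene start in bp, along the gene, in bins of 25 bp, with large and small subunit genes in separate colours. Most centres fall within 100 bp of the start, 43 of 54 for BATF and 26 of 31 for IRF4.

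BATF values of promoters with and without these letters were set side by side. RP genes whose promoter holds the ETS letters had a median BATF value of 172.7 (19 genes with a peak), against 128.2 in the 32 without them. Those with the IRF letters had 178.9 (6 genes), against 141.7 in 45, and those with TCTCGCGA 162.7 (9 genes), against 151.6 in 42. The order was the other way for CCAAT (133.4 in 18 genes, against 172.7 in 33), for TGACGTCA (138.7 in 5, against 166.8 in 46) and for the forkhead letters (140.3 in 6, against 159.7 in 45). Of the 2 promoters with AP-1 letters, Rpl22 had the peak of 367, and that of Rpl9 is given to Lias. These medians are descriptions without a test.

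Libraries held 1377509 to 2280493 reads in peaks in the first BATF table, 162580 to 336969 in the IRF4 table, 164740 to 393310 in the Foxp3 table and 144319 to 1009580 in the second BATF table, where the 144319 belong to 1 of the 2 R397W control libraries. As a check of the sort, 25 of 28 BATF peaks and 10 of 15 IRF4 peaks near Foxp3, Ikzf2, Ctla4, Il2ra and Nrp1 were higher in Treg cells. Summed BATF values of this list were 3730 to 4137 in Treg and 836 to 889 in Tconv libraries. Of B cell markers, Ebf1 and Ms4a1 had no BATF peak, and 1 of 3 peaks near markers on the list was higher in Treg cells (sums 178 to 201 and 107 to 146). Of myeloid markers, Lyz2 and Csf1r had none, and 2 of 5 peaks were higher in Treg cells (sums 616 to 623 and 384 to 412). Of CD8 and NK markers, 1 of 11 peaks was higher and 2 lower (sums 457 to 484 and 559.8 to 574). For IRF4, 1 of 3 B cell marker peaks was higher in Treg cells (sums 44.3 to 82.5 and 39.7 to 64.0), 0 of 3 myeloid peaks (66.2 to 103 and 38.8 to 71.9) and 0 of 1 CD8 and NK peak. The part of other cells in the RP values was not tested.

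The first comparison asks whether BATF occupies the same sites in Treg and Tconv cells. At the promoters of RP genes it found no site past the test. BATF values at the 71 peaks at RP genes were close in the 2 cell types, where a value reflects both the share of cells with BATF at a site and how often it is bound, which cannot be told apart. Of them, 0 were called either way by limma (log2 of value plus 1, Benjamini-Hochberg over all peaks, adjusted p under 0.05). Over all 16109 peaks, 14.9% of peaks were called higher in Treg cells and 4.79% lower, and over peaks within 500 bp of a gene start 1.6% and 2.17%. The share at RP genes is near that of gene starts in general. At an unadjusted p under 0.05, 1 of the 71 was higher (Rpl21) and 5 lower, among them Rps19, Rpl35, Rps15 and Rps10. At gene starts 212 of 6369 peaks were higher and 572 lower, and over all 16109 peaks 3004 and 1721. Over all 85 RP peaks, DESeq2 and edgeR on the recovered reads also called 0 lower, while quantile normalisation called 3, the replicate block 2, and limma without a trend 1, as did leaving out Treg library 1.

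All 71 peaks lay within a 2-fold difference. The log2 differences of the 71 peaks, Treg minus Tconv, ran from -0.99 to 0.44 with a median of -0.10. The median was -0.12 at gene starts and -0.03 over all peaks. Across the 71 peaks the means of the 2 cell types had a Spearman correlation of 0.940, a description over sites that share libraries. The 4 libraries did not overlap, with Treg higher, at 5 of the 71 and, with Treg lower, at 24. Over all peaks these shares were 28.5% and 27.9%, and at gene starts the counts were 786 and 2137 of 6369. The 2 subunits looked alike, with medians of -0.10 over 44 large and -0.11 over 27 small subunit peaks.

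Nearest to the threshold was Rps19, whose log2 difference was -0.47 (SE 0.17, limma adjusted p = 0.0682). Rpl35 had a second, weak peak 627 bp after its start with 27.0 and 24.8 in Treg cells and 54.6 and 50.0 in Tconv cells (log2 difference -0.99, SE 0.37, limma adjusted p = 0.0773). In both the Tconv libraries are the higher ones and the groups do not overlap. Rps19 passed the test under 1 of 12 alternatives, the replicate block (limma adjusted p = 0.0302).

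**Figure D3:**
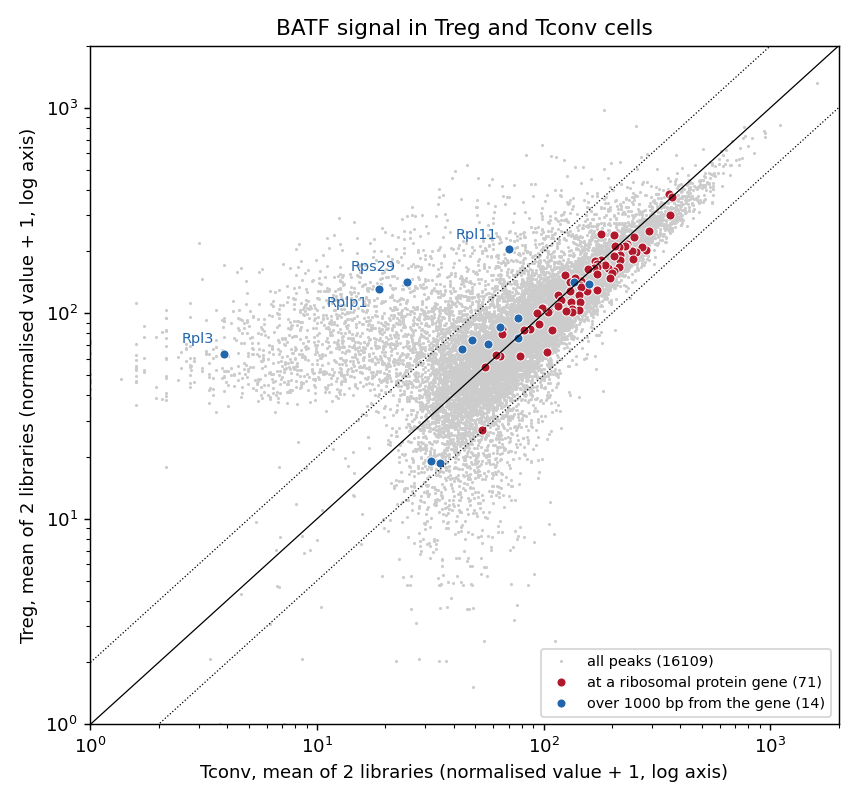
Mean normalised BATF value plus 1 of 2 Tconv libraries (x, log axis) against that of 2 Treg libraries (y, log axis) for all 16109 peaks (grey), the 71 peaks at RP genes (red) and the 14 peaks farther from an RP gene (blue). The solid line marks equal values and the dotted lines a 2-fold difference: all red points lie between the dotted lines, and the named blue points lie above them.

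Of the 14 peaks away from RP genes, 4 were called higher in Treg cells and 0 lower. Among other peaks over 1000 bp from a gene, 30.8% were called higher and 7.44% lower, so the RP share is near that of distal peaks. They are the 4 of 85 RP peaks called in this comparison. The RP gene is the nearest gene of each, and its link to the gene was not tested.

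The peak 55396 bp from Rps29 (chr12:69101926-69102326) had BATF values of 152 and 129 in Treg cells and 22.1 and 25.7 in Tconv cells. Its difference was 5.68-fold (log2 2.51, SE 0.30, limma adjusted p = 1.45e-05). The peak 85196 bp from Rplp1 (chr9:61827687-61828087) lies on the side of the corepressor gene Tle3, which is 409190 bp away. It had 126 and 136 in Treg cells and 23.2 and 12.1 in Tconv cells. Its difference was 7.39-fold (log2 2.89, SE 0.36, limma adjusted p = 2.21e-05). Both Treg libraries were far above both Tconv libraries at each of these sites.

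The peak 28352 bp from Rpl11 (chr4:136081745-136082145) lies between Rpl11, whose product helps to stabilise p53, and Id3, an inhibitor of E proteins whose gene body lies 61677 bp from the peak. It had values of 208 and 199 in Treg cells and 85.9 and 52.1 in Tconv cells, a 3.01-fold difference (log2 1.59, SE 0.24, limma adjusted p = 0.00014). The peak 16284 bp from Rpl3 (chr15:80061097-80061497), on the side of Pdgfb, had 61.2 and 63.2 in Treg cells and 5.81 and 0 in Tconv cells, where the 2 libraries held 5 reads and 0. Its fitted difference was 24.2-fold on the scale of value plus 1 (log2 4.60, SE 0.81, limma adjusted p = 0.000457). The size moved with the settings: the log2 difference was 5.98 without Tconv library 1, 3.22 without Tconv library 2, 3.19 with a pseudocount of 5 and 3.61 with quantile normalisation, each past the test. With DESeq2 it was not called (adjusted p = 0.105). Under every other alternative run, all 4 peaks stayed past the test. The other 10 peaks away from RP genes had log2 differences from -0.91 to 0.68.

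At the promoters of 3 of the same 4 genes, values were close in the 2 cell types. The peak at Rplp1 had 85.0 and 114 in Treg cells and 92.9 and 92.8 in Tconv cells. The one at Rps29 (chr12:69158993-69159393) had 81.9 and 81.3 against 84.8 and 76.4, and the one at Rpl3 (chr15:80083335-80083735) 168 and 161 against 136 and 197. Rpl11 has no peak at the gene in this table. None of these 3 promoter peaks was called. The peak 79645 bp from Rpl34 had 68.4 and 77.9 against 40.7 and 53.6 here (log2 0.63, SE 0.30, limma adjusted p = 0.173), with Treg libraries above Tconv ones.

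IRF4 was compared in the same cell types, with 4 libraries each. At RP genes, 2 of 45 peaks were called lower in Treg cells and 0 higher. Away from them, 2 of 7 were called higher and 0 lower, where 24.8% and 8.05% of other peaks over 1000 bp from a gene were. Over all 9134 peaks, 15.8% of peaks were called higher and 8.39% lower, and within 500 bp of a gene start 1.26% and 8.98%. The mean was lower in Treg cells at 34 of the 45 peaks (75.6%), as at 72.2% of all gene-start peaks, and the median log2 difference was -0.27 at both. The RP share is thus close to that of gene starts in general.

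Rps7 had the strongest IRF4 peak of all RP genes (chr12:28635786-28636186, centred 33 bp before the start). Its values were 41.5, 19.03, 29.9 and 29.0 in Treg cells and 103, 85.6, 43.3 and 56.0 in Tconv cells. Every Treg library was below every Tconv library, which was so for 8.24% of all peaks. The difference was 2.31-fold (log2 -1.21, SE 0.28, limma adjusted p = 0.00285), and it passed the test under all 16 alternatives run on single peaks. The BATF values at this promoter were 153 and 186 in Treg cells and 175 and 196 in Tconv cells, which were not called different (limma adjusted p = 0.714).

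Rpl13a encodes a protein known to act outside the ribosome, in silencing of inflammatory transcripts. Its IRF4 peak (chr7:45128849-45129249, 104 bp before the gene) had 14.7, 20.6, 14.96 and 14.5 in Treg cells and 21.8, 43.2, 29.8 and 28.6 in Tconv cells. The groups do not overlap, and the difference was 1.82-fold (log2 -0.86, SE 0.32, limma adjusted p = 0.0474). This call was lost under 7 of 16 alternatives: without a trend, and when Tconv replicate 2, 3 or 4 or Treg replicate 1, 3 or 4 was left out (adjusted p of 0.0727 to 0.18 for these 6, and 0.029 to 0.18 over all 16). The BATF values there were 165 and 161 in Treg cells and 179 and 134 in Tconv cells, with limma adjusted p = 0.852.

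The IRF4 peak 55389 bp from Rps29 (chr12:69101933-69102333) had 71.0, 61.9, 52.4 and 69.9 in Treg cells and 55.7, 32.7, 2.71 and 29.7 in Tconv cells. Its fitted value was 2.98-fold higher in Treg cells (log2 1.57, SE 0.49, limma adjusted p = 0.0203), although the groups overlap by 1 Tconv library and another holds 3 reads. Without that library, Tconv replicate 3, the log2 difference was 0.73 (limma adjusted p = 0.0415). The call was lost with DESeq2, without a trend, and without Treg library 4 (adjusted p = 0.0576, and 0.00108 to 0.286 over 16 alternatives). The peak 16270 bp from Rpl3 (chr15:80061111-80061511) had 24.9, 14.3, 10.7 and 11.1 in Treg cells and 7.27, 7.66, 3.61 and 3.43 in Tconv cells, with no overlap. It was 2.49-fold higher (log2 1.31, SE 0.48, limma adjusted p = 0.049), and 7 of 15 alternatives lost the call: quantile normalisation, and leaving out any Treg library or Tconv library 3 or 4 (adjusted p of 0.0213 to 0.186). Both sites are those where BATF was called higher in Treg cells.

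The remaining strong IRF4 peaks did not pass the test. The peak 85198 bp from Rplp1 had 50.7, 55.5, 55.6 and 51.1 in Treg cells and 42.8, 40.4, 36.1 and 32.0 in Tconv cells (log2 0.49, SE 0.23, limma adjusted p = 0.127). The peak 28312 bp from Rpl11 had 48.9, 27.0, 49.2 and 39.2 against 26.7, 17.4, 35.2 and 33.1 (limma adjusted p = 0.185). At these 2 sites BATF was called higher and IRF4 was not, and the difference between the factors was not tested.

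At the genes, Rpl29 had IRF4 values of 35.0, 25.4, 27.8 and 30.7 in Treg cells and 101, 43.9, 23.5 and 50.3 in Tconv cells (limma adjusted p = 0.125). Rpl27 had 30.4, 27.0, 21.4 and 16.2 against 30.7, 42.5, 40.6 and 29.7 (limma adjusted p = 0.137). The groups overlap in both. Nearest to the threshold were Rps3, with 11.98, 15.9, 12.8 and 19.6 against 32.3, 22.3, 42.4 and 18.3 (log2 -0.85, SE 0.34, limma adjusted p = 0.0729), and a second, weak peak 266 bp before Rpl13, with 12.7 to 23.9 in Treg and 7.27 to 9.93 in Tconv libraries (log2 1.04, SE 0.40, limma adjusted p = 0.0594).

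**Figure D4:**
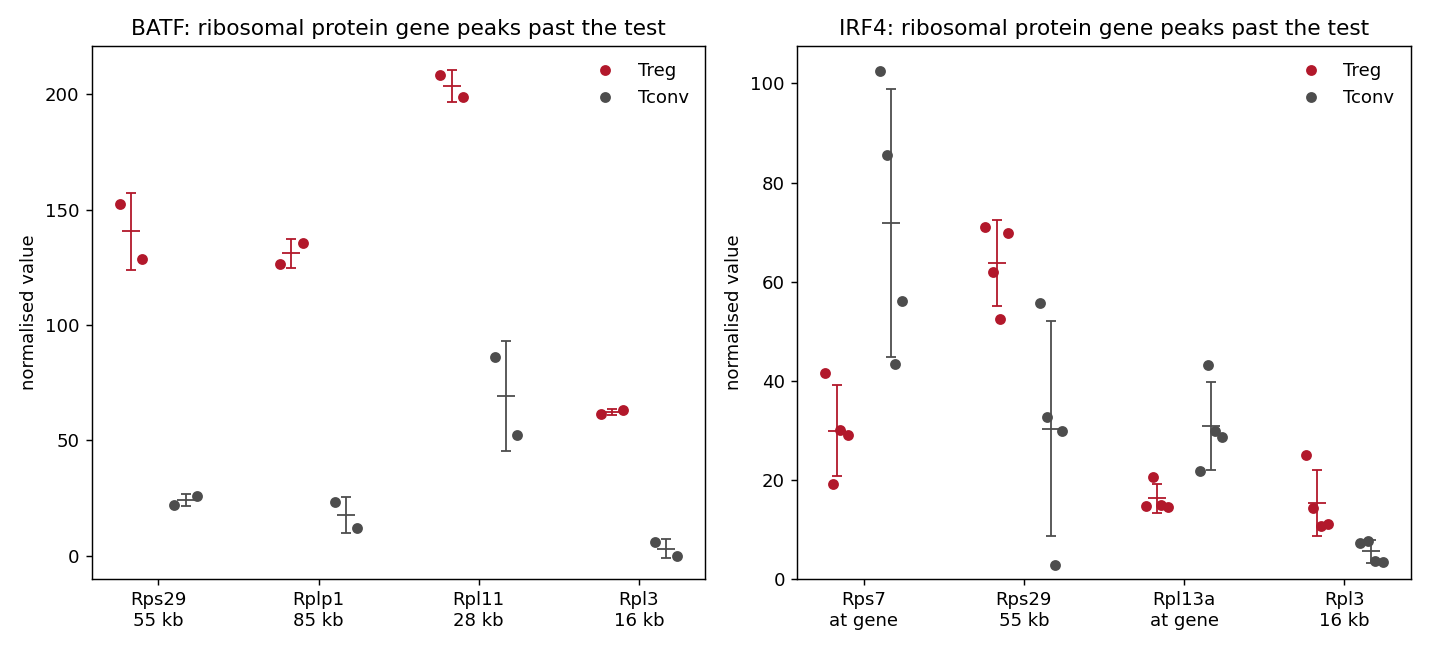
Normalised values of the RP gene peaks past the test in BATF (left, 2 libraries a group) and IRF4 (right, 4 libraries a group), with 1 dot a library, the mean as a bar and the SD as whiskers. The 4 BATF peaks are all away from the gene and higher in Treg cells, whereas for IRF4 the 2 peaks at the gene are lower and the 2 away from it higher.

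Among the other lists, BATF was called higher at 6 and lower at 0 of 76 mitochondrial RP gene peaks, at 1 and 0 of 54 translation factor peaks and at 3 and 2 of 55 ribosome biogenesis peaks. IRF4 was called higher at 4 and lower at 8 of 50, at 0 and 2 of 30 and at 3 and 5 of 26 peaks of the same lists. These counts include peaks up to 100 kb from the gene and stand beside the shares over all peaks given above. In Foxp3, Batf KO against wild type gave 0 higher and 1 lower of 18 mitochondrial RP peaks, 0 of 11 translation factor peaks and 0 of 14 ribosome biogenesis peaks. Effector against central Treg cells gave 1 and 0, 2 and 1, and 1 and 1 of the same peaks.

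Foxp3 had 8 peaks near RP genes, and their Foxp3 values were compared between Batf KO and wild-type Treg cells. None was called by limma (0 of 8), with 0.547% of all 6396 peaks called higher and 3.91% lower, and DESeq2 and edgeR also called 0. At an unadjusted p under 0.05, 2 were lower and 0 higher, beside 667 and 436 of all 6396 peaks. The median log2 difference of the 8, KO minus wild type, was -0.04, against 0.05 over all peaks.

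At Rpl32 (chr6:115808733-115809133) Foxp3 values were 26.4 and 29.6 in Batf KO and 45.5 and 44.3 in wild-type Treg cells, a fold difference of 1.58 (log2 -0.66, SE 0.29, limma adjusted p = 0.234). At Rps3 (chr7:99483431-99483831) they were 46.7 and 25.7 against 47.5 and 30.9. At Rps27l (chr9:66945840-66946240), a p53-responsive relative of Rps27, they were 36.6 and 41.2 against 33.4 and 31.7. The groups overlap at Rps3, lie apart with KO lower at Rpl32, and lie apart with KO higher at Rps27l. Over the 8 peaks, groups lay apart with KO higher at 2 and lower at 3, beside 22.8% and 20.4% of all peaks.

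Of the 5 peaks away from the genes, 3 lie between Rpl11 and Id3. The one 28283 bp from Rpl11 (chr4:136081676-136082076) had 49.8 and 60.5 in Batf KO and 84.9 and 76.9 in wild-type Treg cells (log2 -0.55, SE 0.25, limma adjusted p = 0.255). The one at 35596 bp had 32.5 and 46.3 against 44.5 and 30.9, and the one at 6680 bp 60.0 and 33.5 against 32.4 and 29.2. The peak 79662 bp from Rpl34, on the side of the T cell factor gene Lef1 (299837 bp away), had 28.5 and 24.4 against 36.4 and 42.6. The peak 82691 bp from Rplp1 had 26.4 and 33.5 against 26.3 and 30.9. Wild-type libraries are the higher ones at Rpl11 28283 bp and Rpl34 without overlap.

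In effector against central Treg cells, which share the fit but not the libraries, 1 of the 8 peaks was called lower and 0 higher, with 10.8% and 15.0% of all peaks and 1.79% and 2.59% of those at gene starts. This was the peak 6680 bp from Rpl11 (chr4:136060073-136060473), with 25.3 and 27.1 in eTreg and 45.3 and 48.9 in cTreg cells (log2 -0.82, SE 0.31, limma adjusted p = 0.0498). The call lay at the threshold: it was lost under 8 of 13 alternatives, among them each of the 4 that leave out 1 eTreg or cTreg library (adjusted p of 0.0107 to 0.203). Nearest on the other side were Rpl34 at 79662 bp, with 39.3 and 30.0 in eTreg and 21.3 and 18.5 in cTreg cells (limma adjusted p = 0.0785), and Rplp1 at 82691 bp, with 26.6 and 21.9 against 14.7 and 12.6 (limma adjusted p = 0.0989).

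The Foxp3 peaks at RP genes were not called between these subsets. Rpl32 had 27.9 and 34.6 in eTreg and 41.3 and 33.4 in cTreg cells, Rps3 24.1 and 30.6 against 34.6 and 38.6, and Rps27l 30.4 and 23.6 against 26.6 and 32.6. The mean was lower in eTreg cells at all 3, and the groups overlap at Rpl32 and Rps27l. Over the 8 peaks, groups lay apart with eTreg higher at 3 and lower at 2, beside 31.6% and 32.6% of all peaks. Of the markers, 7 of 33 Treg peaks were higher and 3 lower in eTreg cells, and 1 of 2 CD8 and NK peaks was higher (sums 78.6 to 101 and 52.6 to 54.6). In the Batf KO comparison 3 of 33 Treg peaks were lower and 0 of 2 CD8 and NK peaks were called, and B cell and myeloid markers had no Foxp3 peak. Near Rpl11, the peak at 28283 bp had 67.2 and 66.3 against 63.9 and 48.9, and the one at 35596 bp 54.5 and 67.5 against 83.9 and 55.6.

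The genes with a BATF, an IRF4 and a Foxp3 peak were Rpl11, Rpl32, Rpl34, Rplp1, Rps3 and Rps27l. For Rpl32, Rps3 and Rps27l these lie at the gene. In BATF, Rpl32 (chr6:115808730-115809130) had 172 and 174 in Treg and 160.3 and 181 in Tconv cells, and Rps27l (chr9:66945872-66946272) 193 and 239 against 254 and 211. In IRF4, Rpl32 had 16.6, 20.6, 14.96 and 11.9 in Treg and 20.2, 25.1, 17.1 and 19.4 in Tconv cells, and Rps27l 30.4, 27.0, 26.7 and 15.3 against 29.1, 11.8, 48.7 and 33.1. Groups overlap at all 4 of these, and none was called. Away from the genes, the IRF4 peak 79641 bp from Rpl34 had 20.3, 34.9, 24.6 and 24.7 in Treg and 17.8, 36.2, 20.8 and 16.0 in Tconv cells, and the BATF peak at Rpl34 itself 192 and 191 against 204 and 226. The BATF peak 42316 bp from Rpl11 had 183 and 99.4 against 135 and 136. None of these was called, and only at the Rpl34 promoter do the groups lie apart.

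The second BATF table compares BATF in Treg cells with mutant and normal Foxp3, and it holds fewer RP sites. Of its 9973 peaks, 30 belonged to 24 RP genes, 19 at the gene and 11 away. Of the 71 BATF peaks at RP genes in the first table, 17 (23.9%) overlapped a peak here, against 44.0% of gene-start peaks and 54.5% of all peaks. The 23 strongest, Rpl27 to Rps23, had no overlapping peak, and the strongest with one was Rpl41. Of RP peaks in the top 25% of BATF values, 4 of 43 overlapped (9.3%), and of those in the next 25%, 8 of 20 (40.0%). The same order held over all peaks, with 30.0% in the top 25% and 80.6% in the lowest. The 22.4% of RP genes with a peak in this table therefore cannot be read as a share of BATF-bound RP genes. At the 17 shared sites, the mean values of the 2 tables had a Spearman correlation of 0.990, a description over tables that share 4 libraries.

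In Treg cells with Foxp3 R397W, BATF was lower than in control Treg cells at 2 of the 30 peaks and higher at 0 by limma, with 8.04% and 0.612% of all peaks. Both lay away from the gene, 2 of 11, where 14.0% of other peaks over 1000 bp from a gene were lower. Of the 19 peaks at RP genes 0 were called, where gene starts in general had 0.375% lower and 0.648% higher. In the 19 the mean was higher in R397W cells at 15, beside 1971 of 2933 gene-start peaks. The median log2 difference of the 19 was 0.26, against 0.20 at gene starts and -0.02 over all peaks. At an unadjusted p under 0.05, 2 of the 19 were higher and 0 lower, beside 238 and 50 of 2933 gene-start peaks. Of the other lists, 2 of 44 mitochondrial RP peaks, 0 of 19 translation factor peaks and 2 of 29 ribosome biogenesis peaks were lower, and 0 higher. The groups lay apart with R397W higher at 9 of the 19 and lower at 0, beside 22.7% and 28.8% of all peaks. At gene starts the counts were 915 and 312 of 2933.

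The peak 16283 bp from Rpl3 had 13.7 and 7.62 in R397W and 57.1 and 58.8 in control Treg cells, a 5.24-fold difference (log2 -2.39, SE 0.50, limma adjusted p = 0.00938). In the same table it had 35.1 and 36.8 in Treg and 3.52 and 0 in Tconv cells. The R397W values thus lie between those of these Tconv and Treg cells, which came from mice of another genotype. The control Treg values lie above those of these Treg cells, so this order is only a description. Leaving out control library 1 or 2 ended the call (adjusted p of 0.0605 and 0.127), while the log2 difference stayed between -2.77 and -2.01 over 11 alternatives.

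The peak 79645 bp from Rpl34 (chr3:130810043-130810443) had 23.9 and 21.5 in R397W and 58.6 and 72.6 in control Treg cells (log2 -1.48, SE 0.39, limma adjusted p = 0.0242). In Treg cells it had 39.3 and 45.3 and in Tconv cells 24.6 and 33.0. The call was lost under 7 of 11 alternatives, including each that leaves out 1 library (adjusted p of 0.0146 to 0.273). Control library counts were 312181 and 144319 reads in peaks, the latter the fewest of all libraries.

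Marker lists moved in the same comparison: 4 of 8 peaks of the Treg list were lower in R397W cells (sums 244 to 299 and 760.4 to 844), as was 1 of 3 myeloid peaks (31.9 to 32.5 and 83.0 to 92.5), while 0 of 2 B cell and 0 of 7 CD8 and NK peaks were called. Their part in the RP values was not tested.

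Other peaks away from RP genes had lower means without passing the test. At Rps29, 55393 bp away, BATF was 53.0 and 47.1 in R397W and 72.5 and 104 in control Treg cells (limma adjusted p = 0.134), beside 87.5 and 74.8 in Treg and 13.4 and 15.8 in Tconv cells. At Rplp1, 85199 bp away, it was 18.8 and 70.7 against 66.3 and 79.5 (limma adjusted p = 0.224), beside 72.6 and 78.8 in Treg and 14.1 and 7.47 in Tconv cells. At Rplp1 the 2 R397W libraries are far apart. At Rpl11, 42316 bp away, it was 76.9 and 116 against 142 and 138 (limma adjusted p = 0.209).

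The strongest peaks at RP genes in this table were close between R397W and control cells. Rpl41 had 106 and 151 in R397W and 145 and 131 in control cells, Rpl11 132 and 95.6 against 95.6 and 100.3, and Rps16 85.5 and 115 against 128 and 83.0. Rpl32 had 90.6 and 109 against 106 and 72.6, and Rps15a 71.8 and 107 against 71.0 and 76.1. None was called, and each pair of groups overlaps or touches.

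Nearest to the threshold at the gene was Rpl23a, which had 73.5 and 67.2 in R397W and 44.7 and 17.3 in control Treg cells (log2 1.30, SE 0.42, limma adjusted p = 0.0654), beside 38.1 and 32.8 in Treg and 53.5 and 38.2 in Tconv cells. Both R397W libraries are above both control libraries.

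**Figure D5:**
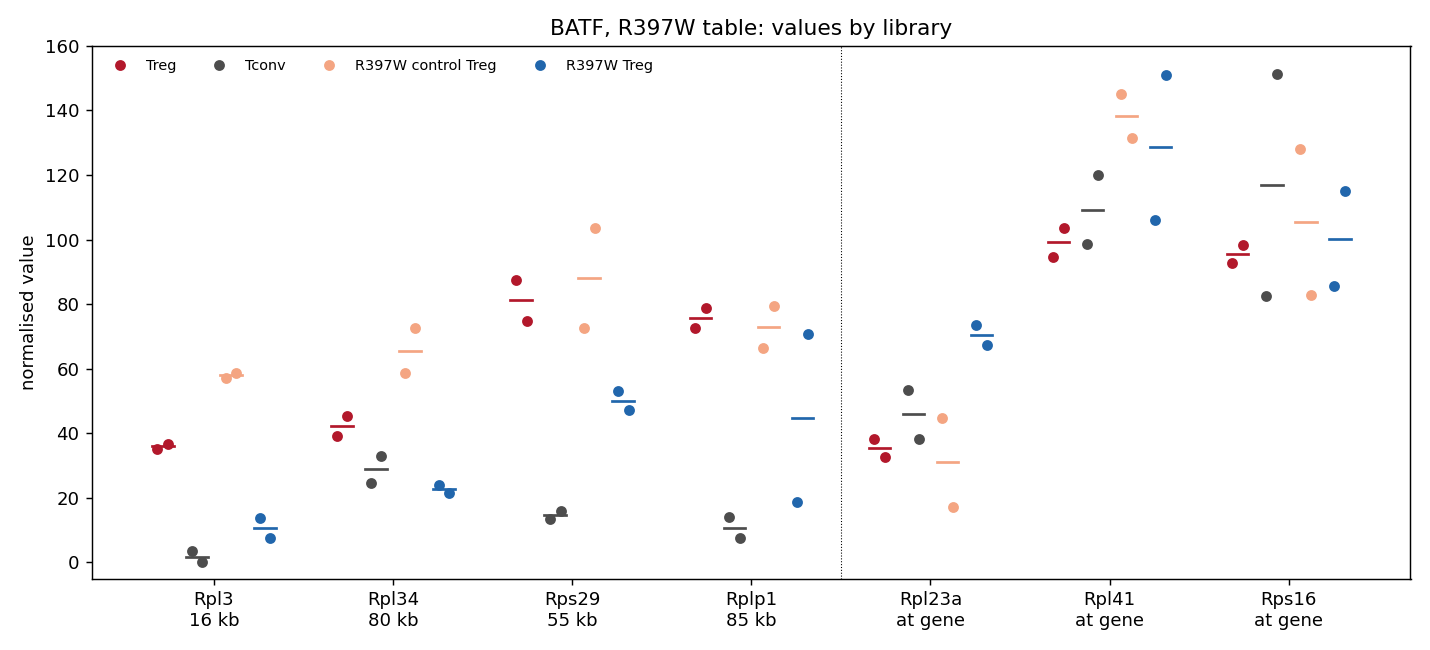
Normalised BATF values in the second BATF table for 4 peaks away from the RP gene (left of the dotted line, with the distance in kb) and 3 at the gene (right), with 1 dot a library and a bar at the mean of 2. Near Rpl3 and Rpl34 both R397W libraries are below both control libraries, and at Rpl41 and Rps16 the groups overlap.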

How the data were processed

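ChIP-seq signal was deposited as 4 tables of peaks by library. Each value is a normalised peak signal that the authors computed from reads in a peak. The submitters' processing notes name Bowtie2 2.4.1, MACS2 2.2.7.1, edgeR 3.38.4, DiffBind 3.12.0 and mm10, with no roles. Within a library the values are whole multiples of the signal of 1 read, so reads could be recovered (100% of values within 0.01 of a whole number). How the scaling factors were set is not given in the sources used here.

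Peaks were assigned to the nearest coding gene body in RefSeq GRCm38.p6 within 100 kb. All peaks of a table were tested, with no filter, by limma 3.58.1 (R 4.3.3) on log2(value + 1) with a trend. Each fit held only the libraries of the groups compared, except that all Foxp3 libraries shared 1 fit. P-values were adjusted by Benjamini-Hochberg over the table, with a threshold of 0.05. Fold changes on this scale understate the change of low peaks. Alternatives were TMM factors, quantile normalisation, a pseudocount of 5, a filter on the lowest 25% of peaks, no trend and the replicate number as a block. Others were single libraries left out, Foxp3 fits on only the libraries compared, and other assignment rules. The recovered reads were also fitted with edgeR 4.0.16 and DESeq2 1.42.0. The test was tested on simulated data. Positions and tables were handled with Python 3.11.15, pandas 2.3.3, numpy 2.4.6 and matplotlib 3.10.9.

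Named peaks were those past the test, the 6 with the highest mean in each table, the peaks of genes with all 3 factors, and those nearest to the threshold. Results of some genes are not reported here. The gene lists were RP genes, mitochondrial RP genes, translation factors, ribosome biogenesis genes, and markers of Treg, B, myeloid, and CD8 and NK cells. The members and lists were chosen with earlier results of these data known. Same-numbered libraries were not treated as pairs, since the labels do not tie them to an animal or day.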

Additional observations from a re-analysis of the deposited data

Results flagged for a closer look

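The IRF4 peak at Rpl13a had 1 Treg library apart from the other 3. Replicate 2 stood at 20.6 and the lowest of the other Treg libraries at 14.5, with a gap to the nearest library of 0.924 of the group's range, above Dixon's critical value for 4 samples. All 4 Treg libraries were still below all 4 Tconv libraries. Of 24 such groups examined this was the 1 past that value, and chance alone passes about 1 in 20 groups.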

How the results depend on the processing

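The 4 BATF peaks called higher near Rps29, Rplp1, Rpl11 and Rpl3 and the lower IRF4 peak at Rps7 kept their calls in all alternatives run on single peaks, except Rpl3 with DESeq2. With quantile normalisation, 3 RP peaks were lower in Treg cells for BATF, 1 was higher for IRF4, 1 was higher in eTreg cells and 1 was lower in R397W cells. Without a trend, 1 was lower for BATF, 0 in eTreg and 1 in R397W cells. With edgeR, 4 IRF4 peaks were lower. With DESeq2, 0 were lower in eTreg and 1 in R397W cells. With TMM factors, 0 were lower in eTreg and 1 was higher in R397W cells. The filter on low peaks left 1 higher for IRF4 and gave 1 higher in R397W cells, as did a pseudocount of 5 (1 higher). A fit of only the 4 libraries gave 1 higher in eTreg cells. Within 1000 bp of the gene, 0 were higher for BATF, 0 higher for IRF4, 0 lower in eTreg and 0 lower in R397W cells. With peaks given to the nearest gene start, 1 was higher for BATF, 0 higher for IRF4 and 1 lower in R397W cells. The median log2 difference of BATF between Treg and Tconv cells, -0.08 over all 85 peaks, was -0.13 with quantile normalisation, -0.053 with edgeR, -0.055 with DESeq2, -0.056 with the filter or the nearest gene start, and -0.10 within 1000 bp. The cause of these shifts was not tested, apart from the fewer peaks that the filter and the assignment rules leave.

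Leaving out 1 library at a time gave 0 to 1 lower for BATF, with a median of -0.10 to -0.064. It gave 0 to 2 higher and 1 to 3 lower for IRF4, where without Treg library 4 no peak was higher (0). It gave 0 lower in eTreg cells, with a median of -0.17 to 0.012. For Batf KO the median ran from -0.32 to 0.055. For R397W it gave 0 to 1 higher and 0 to 2 lower, with 0 lower without control library 1 or 2, and a median of 0.019 to 0.24. Leaving a library out leaves 1 in an arm of 2, which is then assumed to vary like the other groups.

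Differences of peaks that were not called also turned sign. In BATF, Rplp1 at the gene was -0.032 and Rpl22 0.033 with quantile normalisation. Rpl11 at 42316 bp was 0.0082 with TMM factors, 0.066 with edgeR and 0.064 with DESeq2. Rps16 in R397W cells was 0.016 with TMM factors. With 1 library left out, the BATF difference ran from -0.13 to 0.29 at Rplp1, from -0.26 to 0.046 at Rps27l, from -0.093 to 0.26 at Rpl27, from -0.068 to 0.11 at Rpl32, from -0.44 to 0.43 at Rpl11 (42316 bp) and from -0.20 to 0.16 at Rpl22. The IRF4 difference ran from -0.56 to 0.088 at Rps27l. For Batf KO it ran from -0.11 to 0.22 at Rplp1, from -0.56 to 0.28 at Rps3 and from -0.19 to 0.32 at Rpl11 (35596 bp). Between eTreg and cTreg cells it ran from -0.31 to 0.043 at Rps27l and from -0.46 to 0.12 at Rpl11 (35596 bp). For R397W it ran from -0.37 to 0.25 at Rps16, from -0.099 to 0.45 at Rpl32, from -0.033 to 0.53 at Rps15a, from -0.38 to 0.13 at Rpl41 and from -0.034 to 0.42 at Rpl11.

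With the replicate block, 2 RP peaks were lower in Treg cells for BATF, Rps19 among them (adjusted p = 0.0302), and 0 in eTreg cells. Deviations of same-numbered libraries correlated at 0.0882 for BATF, at 0.132, 0.0346, 0.0556 and 0.052 for IRF4, at 0.0761 for Batf KO and wild type and at 0.139 for eTreg and cTreg cells. In IRF4, 6 of 8 libraries correlated best with their own number, which is a hint from the data and not from the design. No paired analysis was possible for R397W because its groups share no replicate numbers in the labels. The lowest depth was 144319 reads in peaks, in 1 R397W control library, and what difference each depth could show was not tested.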

Other observations

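Outside the distance limit of 100 kb, a group of BATF peaks lies 192847 to 244111 bp from Rplp1, on the same side of it as the counted peak at 85196 bp. Their mean values reach 277 at 205028 bp (chr9:61707855-61708255), above every BATF value at Rplp1 itself, whose peak at the gene had a mean of 96.2. They were not counted as RP sites here.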
